A study of Homo sapiens with 2 samples.

Results

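Chromosome 21, the smallest human autosome, carried 475 of the 38084 E2F1 peaks in a pair of deposited lists from LNCaP cells, an androgen-responsive human prostate cancer line. The members were chosen by position, as every peak listed on chromosome 21: 365 of 26431 peaks in the list from cells with a short hairpin against RB (shRB) and 110 of 11653 peaks in the list from cells with a control hairpin (shCON). The chromosome itself had been selected on its ratio of shRB to shCON peaks, seen earlier in these data, so that ratio and its shRB-only share are descriptions. Both lines were LNCaP cells treated with CDT for 72 h, which the series calls hormone deficient and the labels list as a cell cycle arrest treatment. They differed, per the labels, in the hairpin alone. Chromatin was immunoprecipitated with a pair of E2F1 antibodies and sequenced (ChIP-seq), with 1 library per line. The spread between replicates is therefore unknown and no test between the lines was possible. Intervals below are 95% intervals that cover counting over peaks only.

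E2F1 is a transcription factor that switches on genes of DNA replication and entry into the cell cycle, mostly from their promoters. RB, the retinoblastoma protein, binds E2F1 and represses those genes, and hormone withdrawal keeps RB active in prostate cancer cells. Chromosome 21 is acrocentric: its short arm is largely repeats and ribosomal DNA, the first part of the long arm (21q11 to 21q21) is poor in genes, and the far end (21q22) is rich in them. ERG and TMPRSS2, the genes that fuse in many prostate cancers, lie in 21q22, and LNCaP cells do not carry that fusion.

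Chromosome 21 had more than 3 shRB peaks for each shCON peak. The 365 shRB peaks (Poisson interval 329 to 404) and 110 shCON peaks (90.4 to 133) gave a ratio of 3.32 (2.68 to 4.11), against 2.26 (2.21 to 2.31) over all other chromosomes together. They covered 180 kb in shRB and 39.4 kb in shCON. The median chromosome 21 peak was 365 bp wide in shRB (interval 341 to 402) and 305 bp in shCON (279 to 344), against 438 bp and 344 bp in the whole lists. Of the 23 chromosomes 1 to 22 and X, chromosome 21 had the lowest median peak width in both lists. It also had the lowest median score in both, 17.6 in shRB and 10.0 in shCON, where the next lowest chromosome had 19.0 and 11.04. The score is the authors' own value per peak, of unstated scale, so it was compared only within a list.

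Set against gene number, the peak ratio of chromosome 21 can be split into its shRB and shCON parts. Both parts are divided by the same genes, so their contrast restates the ratio on which the chromosome was selected. Chromosome 21 has 239 protein-coding genes in the RefSeq table used here (GRCh38.p14), fewer than any of the other 22 chromosomes counted. The shRB list had 153 peaks per 100 of these genes, the 4th highest value of the 23 chromosomes. In the shCON list it had 46.0 peaks per 100 genes, which ranked 22nd, with only the X chromosome lower at 26.8. Chromosome 22, another small acrocentric, had 157 and 66.1, and chromosome 18, which is poor in genes, had 181 and 73.3. Peaks were not assigned to these genes, and no test of the difference between chromosomes was made.

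**Figure D1:**
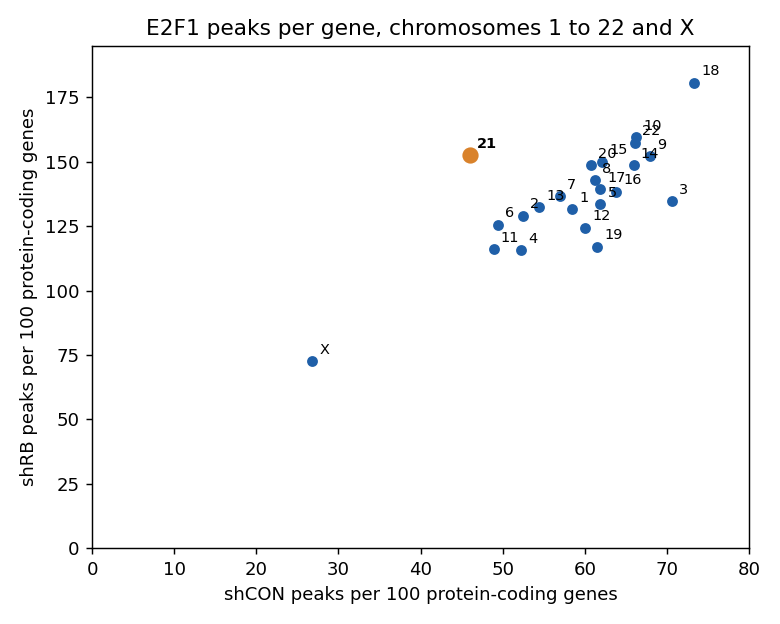
E2F1 peaks per 100 protein-coding genes in the shCON library (x axis) and the shRB library (y axis), 1 point per chromosome for chromosomes 1 to 22 and X. Chromosome 21 (orange, 46.0 and 153) sits high on the y axis for its place on the x axis, with 1 library per line and no error bars.

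At the calls as deposited, most chromosome 21 peaks of the RB-depleted line overlapped no peak of the control line. Peaks with at least 1 bp in common with a peak from the other line count as shared, and all others as single-list. Of the 365 shRB peaks, 93 were shared and 272 were shRB-only, or 74.5% (Wilson interval 69.8 to 78.7). The same share was 61.6% in the whole shRB list. Of the 110 shCON peaks, 97 were shared, or 88.2% (80.8 to 93.0), and 13 were shCON-only, or 11.8% (7.04 to 19.2), against 9.66% of the whole shCON list. Both shares depend on the rule. With the shRB list shortened to the length of the shCON list, 37.9% of the chromosome 21 peaks left were shRB-only (30.1 to 46.4), a minority, against 23.3% of that shortened list. With an overlap of 50% of both peaks required, 45 of 110 shCON peaks were shared, or 40.9% (32.2 to 50.3), against 52.0% of the whole list. The numbers shared differ between the lists because 4 shRB peaks each spanned 2 shCON peaks. A site without a call was not detected by the authors' caller at an unknown depth, which is not absence of binding.

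The shRB-only share fell with score on chromosome 21, as it did on the other chromosomes. By quartiles of the whole shRB list, 30.7% of chromosome 21 peaks fell in the lowest quartile of scores (interval 26.2 to 35.6) and 18.1% in the highest (14.5 to 22.4). In the lowest quartile all 112 were shRB-only, against 97.1% on the other chromosomes. In the second quartile 94 of 98 were, or 95.9% (90.0 to 98.4), against 90.0% elsewhere. The third quartile had 56 of 89, or 62.9% (52.5 to 72.2), against 52.8%. Among the highest quartile 10 of 66 were shRB-only, or 15.2% (8.44 to 25.7), against 6.27% elsewhere. These shares are a description, since the chromosome was selected on a value tied to them, and scores still differ within a quartile. On the long arm alone the shRB-only share of the highest quartile was 13.1% (8 of 61, 6.80 to 23.8). The shCON peaks of chromosome 21 were also weak for their list: 36.4% (28.0 to 45.7) lay in its lowest quartile and 13.6% (8.44 to 21.29) in its highest.

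**Figure D2:**
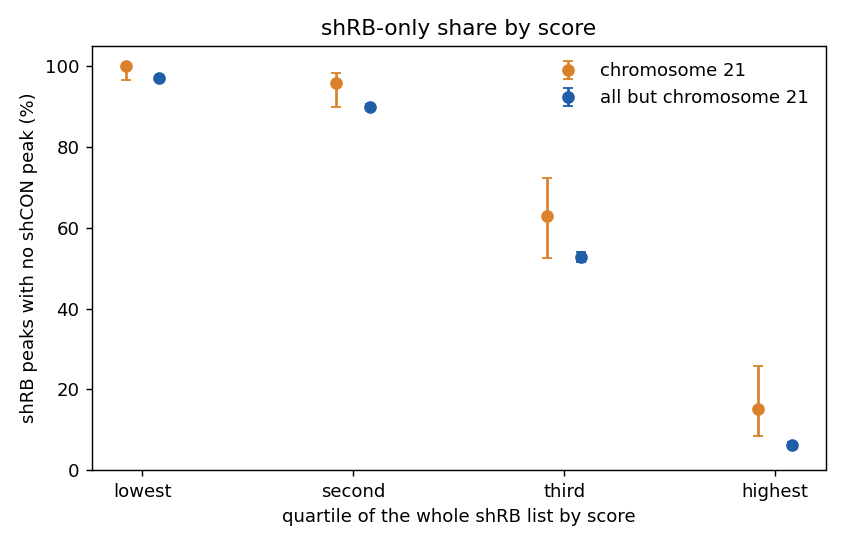
Share of shRB peaks without an overlapping shCON peak (y axis, percent) in each quartile of the whole shRB list by score (x axis), for chromosome 21 (orange) and all other chromosomes (blue), with 95% Wilson intervals. The share falls with score in both, and chromosome 21 lies above the others in each quartile, at 15.2% against 6.27% in the highest.

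The peaks were concentrated at the far end of the long arm. Band 21q22.3 held 145 shRB peaks, or 39.7% of those on the chromosome, and 38 shCON peaks, or 34.5%. This was 25.9 shRB and 6.79 shCON peaks per Mb of band. Bands 21q22.11, 21q22.12, 21q22.13 and 21q22.2 held 10.9, 11, 14.7 and 10 shRB peaks per Mb. Their shCON values were 4.42, 4.50, 4.21 and 1.72 per Mb, so 21q22.2 was the sparsest of these in the control list. Band 21q21.1 had a density of 5.13 per Mb in shRB and 1.18 in shCON, and 21q21.2 had no peak of either list. The band edges are known to about 0.1 Mb.

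The shRB-only share ranged from 61.7% to 88.9% over the bands, and the intervals of all pairs of bands overlapped. The whole shRB list had 61.6%, a value inside the interval of each band with peaks except 21q21.1, 21q22.2 and 21q22.3. These shares are given band by band. The share was 61.7% in 21q22.11 (29 of 47 peaks, interval 47.4 to 74.2) and 63.6% in 21q22.12 (14 of 22, 43.0 to 80.3). The share reached 71.4% in 21q22.13 (20 of 28, 52.9 to 84.7), 75.9% in 21q22.3 (110 of 145, 68.3 to 82.1) and 82.8% in 21q22.2 (24 of 29, 65.5 to 92.4). In 21q21.1 it was 87.2% (34 of 39, 73.3 to 94.4), and in 21q21.3 68.4% (13 of 19, 46.0 to 84.6). Band 21q11.2 had 70% (7 of 10, 39.7 to 89.2), 21p11.2 had 76.5% (13 of 17, 52.7 to 90.4) and 21p11.1 had 88.9% (8 of 9, 56.5 to 98.0). No difference between bands was tested. In the control list 77 of 79 shCON peaks in 21q22 were shared, or 97.5% (91.2 to 99.3). In 21q11 to 21q21, 14 of 22 were shared, or 63.6% (43.0 to 80.3). The whole shCON list had 90.3%. These 22 peaks came from 21q11.2, 21q21.1 and 21q21.3, with 3 of 4, 5 of 9 and 6 of 9 shared. Both regions are pooled bands, and the difference between them was not tested either. The shCON-only peaks lay mostly outside the gene-rich end, with 8 of 13 in 21q11 to 21q21, 3 on the short arm and 2 in 21q22.

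**Figure D3:**
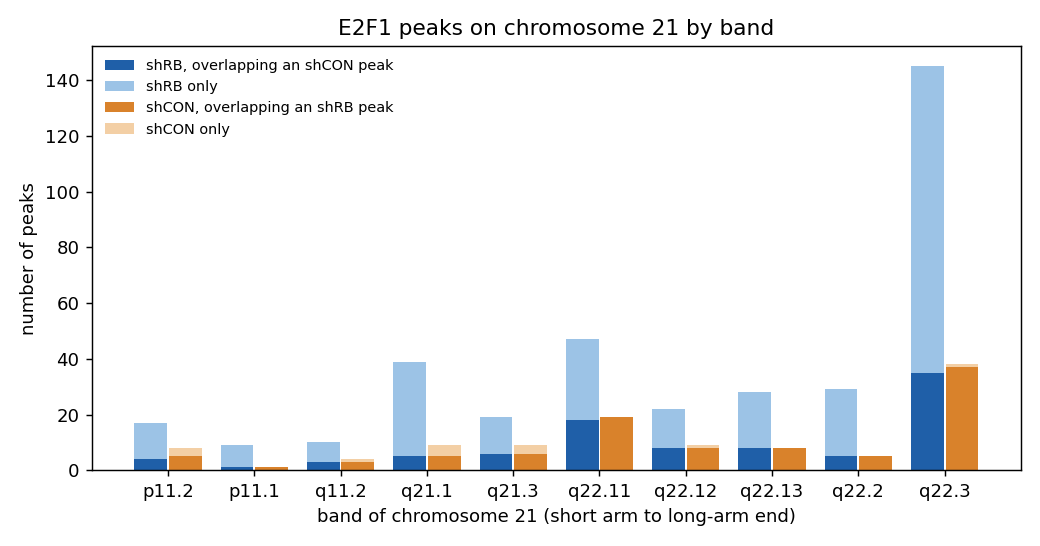
Number of E2F1 peaks (y axis) in each band of chromosome 21 that held a peak (x axis, short arm to the end of the long arm), shRB in blue and shCON in orange, with single-list peaks in the paler shade. Band q22.3 holds 145 shRB and 38 shCON peaks, and the pale part is large for shRB in each band.

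The strongest chromosome 21 sites were called in both lines. The highest shRB score was at a site in 21q22.11, from 33650988 to 33651656 on hg19. That peak scored 264 and ranked 120th of the whole shRB list, and its 443 bp shCON partner scored 98.6 and ranked 392nd of the shCON list. The next site lay in 21q22.3 from 47743405 to 47744887, with a shRB score of 208 at place 1.50% from the top of its list and a shCON score of 108.5 at 2.69%. The third was its neighbour from 47878105 to 47879103, ranked 552nd in shRB and 1719th in shCON. The fourth lay in 21q21.3 from 30364942 to 30365550, ranked 624th and 447th. The fifth, from 37757427 to 37758168 in 21q22.12, ranked 670th and 986th. All 5 stood within the top 2.53% of shRB peaks, and their shCON partners stood between the top 2.69% and the top 14.8% of that list. In 21q22.13 the strongest shared site (38630385 to 38630920) stood in the top 12.1% of shRB and at 48.0% of shCON. The strongest in 21q21.1 (18984902 to 18985499) stood at 13.4% and 25.05%, but by plain rank it was 3533rd in shRB and 2919th in shCON. The lists differ in length, so percent places are not comparable between them.

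The order of sites by score was less alike in the lists on this chromosome than over the genome. At 89 chromosome 21 sites a single shRB peak and a single shCON peak overlapped. The Spearman rho of their scores was 0.51, against 0.70 over all 9712 such sites, and no interval was computed for either. The 89 include 4 short-arm sites, and rho was not computed without them. The lower scores of this chromosome were not allowed for. Sites are not independent replicates and share their library, so this is a description. By percent of its own list, the shCON peak stood nearer the top than the shRB peak did at 7 of the 89 sites, or 7.87% (3.86 to 15.4). The value for all such sites was 9.10%. This count depends on list length, since the shRB list has 26431 peaks and the shCON list 11653. By plain rank, the medians of all shared chromosome 21 peaks were close, at 6127 in shRB and 6673 in shCON. One of them, from 46220074 to 46220276 in 21q22.3, ranked 17344th in shRB with a score of 13.6 and 1844th in shCON with 35.8. Its shRB peak was 203 bp wide and its shCON peak 361 bp.

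**Figure D4:**
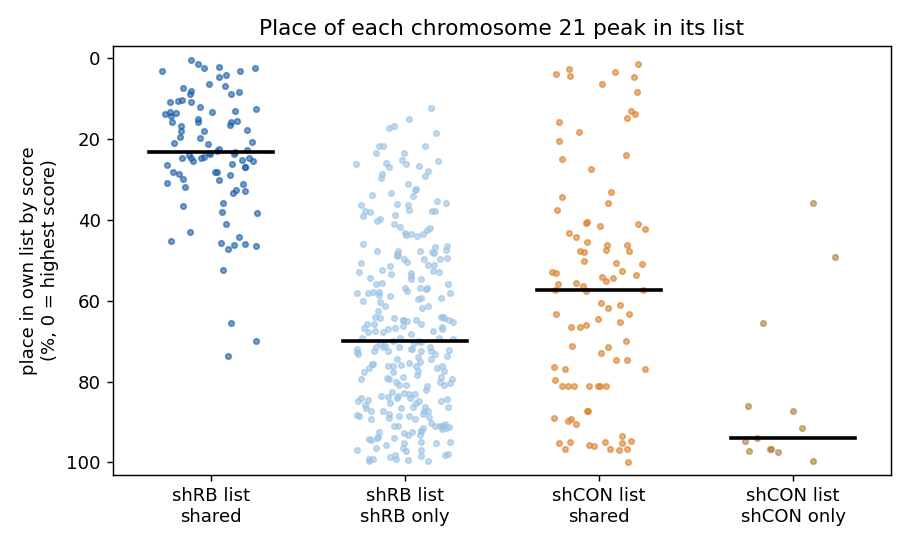
Place of each chromosome 21 peak in its own list by score (y axis, percent of the list, 0 at the highest score) for 4 classes of peak (x axis), with the median as a bar. Shared shRB peaks have a median place of 23.2%, shRB-only 69.9%, shared shCON 57.3% and shCON-only 94.0%. The lists differ in length (26431 shRB and 11653 shCON peaks), so places are not comparable between lists.

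Shared sites were wider in the RB-depleted line. At the 89 paired sites the median width was 747 bp in shRB (interval 658 to 882) and 323 bp in shCON (290 to 372). Site by site, shRB exceeded shCON by a median of 376 bp (273 to 519). The same difference over all paired sites was 273 bp (269 to 279). Of the 89 sites, 85 were wider in shRB, or 95.5% (89.0 to 98.2), against 95.1% of all paired sites, so the direction was that of the whole lists. At 79 of the 89 sites the shCON peak lay wholly inside the shRB peak, or 88.8% (80.5 to 93.8), against 79.7% overall. By long-arm band the median difference ran from 213 bp at the 3 sites of 21q11.2 to 773 bp at the 5 of 21q22.2. It was 699 bp at the 5 sites of 21q21.1, 608.5 bp at the 8 of 21q22.13, 400 bp at the 33 of 21q22.3 and 373 bp at the 17 of 21q22.11. The widest gain was in 21q22.2, where a shRB peak of 1544 bp from 40720296 to 40721839 met a shCON peak of 376 bp. At the 4 sites wider in shCON the shRB width minus the shCON width was -15, -51, -58 and -158 bp. A further 3 shRB peaks of 21q22 and 1 of the short arm spanned 2 shCON peaks each, such as the 1284 bp shRB peak from 34696571 to 34697854 over shCON peaks of 348 and 262 bp. With pairs limited to those overlapping by 50% of both peaks, the median difference was 198 bp (155 to 258) at 45 sites. The cause of the difference in width was not tested.

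**Figure D5:**
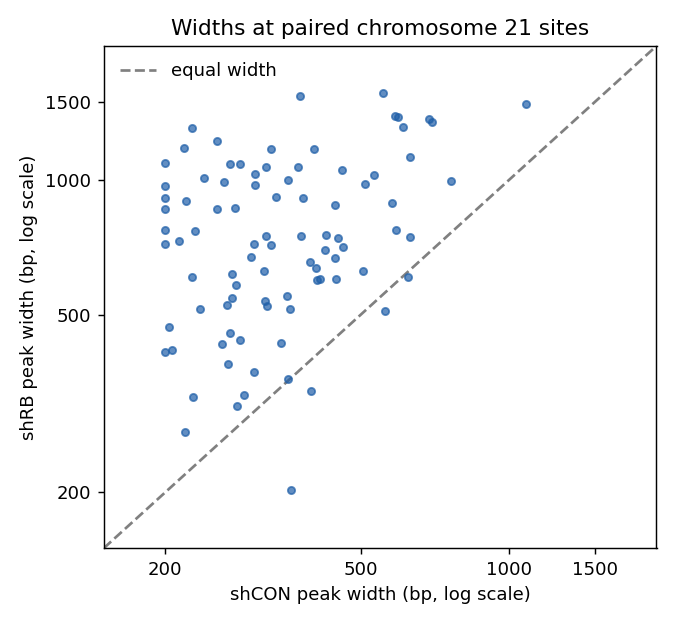
Width of the shCON peak (x axis, bp, log scale) and of the shRB peak (y axis, bp, log scale) at the 89 paired sites of chromosome 21, with a dashed line at equal width. All but 4 points lie above the line, and the point farthest above it in bp is 1544 bp in shRB against 376 bp in shCON.

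The shRB-only peaks of chromosome 21 were narrow and mostly weak, as in the whole shRB list, with a few strong ones. Their median width was 313.5 bp (interval 290 to 335), against 752 bp (675 to 890) for shared shRB peaks, and their median score 12.01 (10.8 to 13.5), against 59.5 (56.2 to 70.1). Over all chromosomes shRB-only peaks had a median width of 317 bp and a median score of 12.6, and shared shRB peaks 712 bp and 65.9. The strongest, in 21q21.3 from 30257357 to 30257883, scored 85.4 and ranked 3257th, and the closest control peak was 107 kb away. The next, from 35445325 to 35446646 in 21q22.11, was 1322 bp wide, scored 77.5, and its closest control peak was 157 kb off. A short-arm peak from 9968287 to 9968755 scored 72.5. One in 21q21.1, from 22370350 to 22371005, scored 71.4, with no control peak for 3178 kb. The fifth, from 43186897 to 43187470 in 21q22.3, scored 68.9 at rank 4894, with 243 kb to the nearest shCON peak. No control call came closer than 86.4 kb to any of these 5, and they stood between the top 12.3% and the top 18.5% of their list. A shared peak lay within 1 kb of 14 of the 272 shRB-only peaks, or 5.15% (3.09 to 8.45), against 5.94% over all chromosomes. Within 5 kb the count was 16, or 5.88% (3.65 to 9.34), against 10.0% (9.57 to 10.5). The median distance was 87.9 kb, against 59.6 kb.

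The longest uninterrupted run of shRB-only peaks in the whole shRB list lay in the gene-poor band 21q21.1. Between 17652684 and 17988949, 19 shRB-only peaks followed one another within 336 kb, with no shared or shCON peak between them and a median gap of 12.2 kb. A run was ended by a gap over 50 kb, and the next longest of 3449 runs, on chromosome 1, held 15 peaks. All 19 were weak and narrow: scores ran from 3.83 to 19.3 with a median of 8.70, and widths from 200 to 554 bp with a median of 259 bp. The last shCON peak before the run was itself shCON-only (17565382 to 17565595). With gaps of up to 100 kb the run held 20 peaks and stayed the longest of 3719, the next holding 18. Limiting gaps to 20 kb broke it up, and its longest piece, of 5 peaks, ranked 24th. Without these 19 peaks the chromosome's shRB-only share was 73.1% (68.2 to 77.5). The run was picked after the values had been seen. In 21q22.3 the longest run held 8 peaks, from 43099144 to 43223157, with scores from 6.64 to 68.9. The 1 Mb window around it, from 43000001 to 44000000, held 30 shRB peaks, of which 3 were shared.

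The 13 shCON-only peaks were weak in their own list. Scores ran from 3.34 to 17.7, 10 of the 13 lay in the lowest quartile of the shCON list, and 5 were 200 bp wide (38.5%), the least width in the files. Of all 1126 shCON-only peaks, 566 lay in that quartile and 15.6% were 200 bp wide. The strongest, from 19141551 to 19141916 in 21q21.1, scored 17.7 at rank 4164 and lay 49.2 kb from the nearest shRB peak. The second, from 45400658 to 45400937 in 21q22.3, scored 12.8 and lay 28 bp from a shRB peak, so it missed being shared by that distance. Another, in 21q21.3 from 28922614 to 28922847, scored 9.34 and lay 209 kb away. The fourth (17565382 to 17565595, score 6.19) and the fifth (10138855 to 10139063, score 6.09) ranked 10029th and 10179th. The median distance of the 13 to a shRB peak was 52.9 kb, and 1 of them lay within 500 bp of one.

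The short arm held 26 shRB and 9 shCON peaks, from 9432176 to 11186871. It carried the strongest shCON peak of the chromosome, 1063 bp wide from 9826559 to 9827621, with a score of 134 at rank 167. Beside it lay a second shCON peak (9825474 to 9826357, score 68.1, rank 740), and 1 shRB peak of 2159 bp spanned both with a score of 157 at rank 824. At 2 of the 4 paired short-arm sites the control line ranked the site higher. The site from 9695935 to 9696293 ranked 8438th in shRB and 504th in shCON, and that from 11186440 to 11186871 ranked 11969th and 1525th. Of the short-arm shRB peaks 21 of 26 were shRB-only, or 80.8% (62.1 to 91.5), against 74.0% (69.1 to 78.4) on the long arm. The high share of the chromosome was thus also that of its long arm. Repeats were not mapped here, and their part in the short-arm peaks was not tested.

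From ERG to TMPRSS2 most shRB peaks lacked a control call. ERG is an ETS-family transcription factor and TMPRSS2 an androgen-regulated serine protease of the prostate epithelium. In the RefSeq gene order (GRCh38.p14) 18 protein-coding genes run from ERG through ETS2, PSMG1, BRWD1, HMGN1, GET1, GET1-SH3BGR, LCA5L, SH3BGR, B3GALT5, IGSF5, PCP4, DSCAM, BACE2, FAM3B, MX2 and MX1 to TMPRSS2. ETS2 is a second ETS factor, PSMG1 helps assemble the proteasome, HMGN1 binds nucleosomes, DSCAM is a neural adhesion molecule, and MX1 and MX2 are interferon-induced GTPases. The stretch taken for this interval on hg19 was set from general knowledge of the 2 genes' positions, to 0.1 Mb. Since no hg19 annotation was used here, single peaks were not assigned to any of these genes. It held 35 shRB peaks, the first starting at 39727954 and the last ending at 42880439, and 7 shCON peaks. All 7 shCON peaks were shared, and 28 of the 35 shRB peaks were shRB-only, or 80% (64.1 to 90.0), a share whose interval holds the 74.5% of the whole chromosome.

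The 7 shared sites of the ERG to TMPRSS2 interval all stood above the median of the shRB list, 4 of them in its highest quartile. In the shCON list 6 of the 7 stood below the median. Such a contrast was general: shared peaks of all chromosomes had a median place of 19.9% from the top in shRB and 47.1% in shCON. On chromosome 21 these places were 23.2% and 57.3%. The shRB list is the longer, with 26431 peaks against 11653, and by plain rank some of the 7 sites stood higher in shCON. Their shRB scores ran from 31.3 to 70.4 and their shCON scores from 6.96 to 16.9. The first site (39727954 to 39728280) scored 31.3 in shRB and 6.96 in shCON. A group of 4 close to one another followed. The first of these, from 40554933 to 40556106, scored 70.4 and 11.6, and the next, from 40685065 to 40686286, 58.0 and 11.7. The site from 40720296 to 40721839 scored 50.9 and 16.9, the highest shCON score of the interval. The last of the group, from 40752017 to 40752472, scored 56.8 and 9.74. The remaining sites were near the far end: 42792005 to 42792737, with 37.3 and 6.96, and 42879812 to 42880439, with 70.1 and 8.65. That last site ranked 4748th of the shRB list and 8163rd of the shCON list.

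Between the group of 4 and the far end lay 2.04 Mb with no shCON peak, from 40752286 to 42792129. This was the fourth longest stretch of the chromosome without a shCON peak, among those between 2 such peaks, and it held 16 shRB-only peaks. Their scores ran from 5.18 to 62.3 with a median of 22.22. The strongest lay from 40817300 to 40818037 (score 62.3, 738 bp wide), followed by peaks at 42440938 to 42441288 (54.4) and 41758231 to 41758589 (43.6). The 0.827 Mb between the first shared site and the group of 4 held 8 shRB-only peaks with scores from 5.89 to 44.9, the strongest from 40177705 to 40178244. Another 3, with scores from 6.64 to 13.6, lay between the last 2 shared sites. Over the interval the shRB-only peaks had a median score of 13.998 and a median width of 335 bp, against 56.8 and 733 bp for the shared ones. Of the 28, 1 stood in the highest quartile of the shRB list and 18 below its median. Among all 272 shRB-only peaks of the chromosome, 10 stood in that quartile. The median score of the 272 was 12.01, at 69.9% from the top of the list, so such low places were not particular to the interval.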

How the data were processed

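Each library had 1 deposited list of peaks, in 5 unnamed columns that hold position, a peak name and a score. Per the submitters' processing notes in the labels, Bowtie, MACS2 and hg19 were used; their versions, the thresholds and the control for calling are not stated in the sources consulted. The peak score is the authors', as deposited, and the coordinates are those of the authors' files, converted to 1-based starts. Depth per library is unknown. Chromosome 21 peaks and all lists here were chosen with earlier results of these data known.

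Overlap (at least 1 bp), ranks and quartiles of score were computed on the whole lists with scipy 1.17.1, pandas 2.3.3 and numpy 2.4.6 under Python 3.11.15, and 7 of 7 checks on planted intervals and against bedtools 2.31.1 passed. Ties in score were ordered by position. Shares carry Wilson intervals, numbers exact Poisson intervals, medians intervals from order statistics and ratios a log-normal interval. Band edges and the ERG to TMPRSS2 limits on hg19 were entered by hand to 0.1 Mb, and peaks fell in a band by their centre. The named peaks were the 5 highest-scoring of each class, the highest of each band and those from ERG to TMPRSS2; others were chosen after their values were seen. The gene table was of GRCh38, so promoter shares, gene classes, motifs and the gene lists planned for cell cycle, androgen-linked, interferon, RNA and protein turnover, metabolic and neural genes gave no result. The alternatives were a reciprocal overlap of 50%, centres within 200 bp, an extension of 500 bp, the upper 50% of each list, equal numbers, and leaving out the short arm and the flanks of the longest peak-free stretch.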

Additional observations from a re-analysis of the deposited data

How the results depend on the processing

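Of 43 alternative values computed, 31 stayed within the interval of the reported value and 12 moved beyond it. The shRB-only share and the shared share of shCON peaks each fell below 50% under 1 setting. The shRB-only share, 74.5% as reported, was 87.7% with a reciprocal overlap of 50%, 80% with centres within 200 bp and 79.4% in the upper 50% of each list. It was 37.9% when the shRB list was shortened to as many top peaks as the shCON list has. Under the same settings the whole shRB list gave 77.1%, 67.0%, 59.8% and 23.3%, so the chromosome 21 share was the higher in each of these 4. The shared share of shCON peaks, 88.2% as reported, was 40.9% with the reciprocal rule, 66.4% with centres and 77.3% with lists of equal number. In the upper 50% of each list the ratio of peak numbers was 4.19, against 2.27 over all chromosomes. The ERG to TMPRSS2 interval then kept 17 shRB and 1 shCON peaks, fewer by construction. With centres the shRB-only share of 21q21.1 was 94.9%, and with the reciprocal rule the median width difference was 198 bp. Leaving out the short arm and the flanks of the longest peak-free stretch gave 73.8%, 90.8% and a ratio of 3.35. The alternatives for promoters and motifs were not run. No paired analysis was possible because each line had 1 library. The depth of the libraries is unknown, so a missing call may be one below detection.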

Other observations

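Among peaks at the least width in the files, 200 bp, chromosome 21 had 27 of its 365 shRB peaks (7.40%) and 13 of its 110 shCON peaks (11.8%), against 5.37% and 4.89% of the whole lists. Scores repeated exactly across many peaks were also more frequent in the shCON list of chromosome 21: 27 of the 110 shCON peaks, or 24.5% (interval 17.5 to 33.4), had a score held by at least 10 peaks of the list, against 14.5% of all shCON peaks. In the shRB list 63 of the 272 shRB-only peaks had such a score, or 23.2%, against 24.5% of all shRB-only peaks, and none of the 93 shared ones, against 1.39% of all shared shRB peaks.

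Long stretches of chromosome 21 held no peak of either list, and the longest, 3.40 Mb from 23582401 to 26979570, lay in the gene-poor part of the long arm. Another of 3.22 Mb, from 11186871 to 14410168, spanned the centromere. In the control list the first of these was part of 7.79 Mb without a peak, from 19192097 to 26979701, in which the shRB list had 9 shRB-only peaks. Of 34 windows of 1 Mb with any peak, 27 had at least 1 control peak. The other 7 had 18 shRB peaks between them. Windows were not counted on the other chromosomes and the shCON list is the shorter, so whether these numbers are unusual is unknown.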
